A study of Mus musculus with 6 samples.

Results

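The glutamate tRNA genes are the 22 annotated RNAs whose names begin with tRNA-Glu in the count tables, out of 471 tRNA genes and 16310 RNAs in all. They were taken by name alone, 14 with the anticodon CTC and 8 with the anticodon TTC, and were measured in small RNA libraries of exosomes, vesicles that cells release into their medium. Each group had 3 libraries, described in the labels as biological replicates. The ESC group came from epidermal stem cells of the dorsal skin of C57BL/6 mice aged 3 weeks, taken as cells that adhered rapidly to collagen IV and grown in serum-free keratinocyte medium. The Fb group came from dermal fibroblasts of the dorsal skin of db/db mice aged 14 weeks, grown with fetal bovine serum and moved to serum-free medium before exosomes were collected. The strain label nevertheless reads C57BL/6 for all 6 libraries. Cell type, donor mice, age and medium differed together between the groups, so their parts in a difference cannot be told apart. The cells were primary cultures of early passage, and nothing ties a library to a single animal, so the p-values below speak for these libraries only. The exact permutation p-values are at their lowest, 0.1, whenever the 3 against 3 libraries do not overlap, however far they spread.

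A tRNA brings its amino acid to the ribosome and reads the codon with its anticodon. The CTC anticodon reads the glutamate codon GAG, and the TTC anticodon reads GAA and, by wobble pairing, also GAG. Genes with the same anticodon but a different body sequence are called isodecoders, and the copies of an isodecoder share their mature sequence. Glutamate tRNAs, together with glycine tRNAs, are known as sources of the tRNA fragments found outside cells, which arise when nucleases such as angiogenin cut in the anticodon loop. In the gene names the third field is the anticodon, the fourth the isodecoder and the fifth the copy. The deposited tables give reads per gene and not the part of the tRNA that a read covers, so fragments and whole tRNAs were not separated.

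Assigned reads numbered 6914504 to 11149046 per library. The share of tRNA genes was 79.4%, 79.9% and 78.7% in ESC replicates 1, 2 and 3. It was higher in every Fb library, at 89.6%, 80.5% and 84.5% in replicates 1, 2 and 3. The miRNA reads numbered 1.39e+06, 1.48e+06 and 1.52e+06 in the ESC libraries. They were far fewer in the Fb libraries, at 49019, 177990 and 118748. Glutamate genes received 1243646 to 1736148 reads per library, so counting error is small beside the spread between libraries for the sums below. Without molecular identifiers, reads are not independent molecules. On a scale of counts per 1e+06 miRNA reads (CPM), the epithelial miRNA list (7 of 7 found) had sums from 59872 to 74600 across ESC libraries and from 7457 to 14174 across Fb libraries. The mesenchymal list (6 of 6 found) had sums from 175 to 209 and from 194836 to 303454, which is the order the cell type labels give. No member of either list was at 0 in every library of a group. A list of 4 red blood cell miRNAs summed to 196 to 303 CPM in the ESC group, against 4303, 1151 and 22233 CPM for Fb replicates 1, 2 and 3. The part of red cells or serum in the tRNA reads was not tested. Bulk libraries cannot tell fewer vesicles from less RNA per vesicle.

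RefSeq (GRCm38.p6) places 20 nuclear glutamate tRNA genes, each 72 bases long, on 10 chromosomes. Of these, 12 carry CTC and 8 TTC. A group of 4 CTC genes lies on chromosome 1 between chr1:171064164 and chr1:171103114, the first of them (n-TEctc5, chr1:171064164-171064235) in an intron of Fcgr3, the gene of an antibody receptor. The TTC gene n-TEttc4 (chr14:79481668-79481739) lies in an intron of Elf1 and n-TEttc5 (chr13:23463535-23463606) in an intron of Btn1a1. Of the 20 genes, 7 lay within the span of a gene of the GENCODE M21 annotation and 0 overlapped an exon. No table used here pairs these symbols with the tRNA-Glu names, so no count was assigned to a position.

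The mitochondrial genome carries its own glutamate tRNA gene, mt-Te (chrM:14071-14139, GRCm38, minus strand), which is not among the 22. Its sequence, from the GENCODE M21 transcripts, is shown because it is a glutamate tRNA with a TTC anticodon, here in capitals at positions 31 to 33, from a separate genome.
mt-Te: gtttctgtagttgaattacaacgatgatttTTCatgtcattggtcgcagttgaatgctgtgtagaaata
It had 13 to 50.9 reads per library, or 4.12 ± 1.03 CPM of assigned reads (SD, n = 3) in ESC and 2.40 ± 0.908 in Fb libraries (exact two-sided permutation p = 0.2). The groups overlapped, and the reads of this gene were few beside those of the nuclear family.

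Glutamate tRNAs as a family took more of the reads in Fb exosomes, and this came from the CTC genes. They held 12.7%, 12.5% and 11.99% of all assigned reads in ESC replicates 1, 2 and 3 and 15.6%, 20.0% and 22.8% in Fb replicates 1, 2 and 3. Every Fb library lay above every ESC library, with the lowest Fb value in replicate 1. The means were 12.4% ± 0.384 (SD, n = 3) and 19.4% ± 3.65, a ratio of 1.57 (exact two-sided permutation p = 0.1, the smallest p that 3 against 3 libraries can give, adjusted 0.133 over 24 amino acid groups). Such a separation on the Fb side was common among the amino acid groups, at 70.8% of the 24, with 4.17% separated on the ESC side. As a share of tRNA reads alone the family held second place, after glycine, in all 6 libraries.

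The 2 anticodons went opposite ways. Glutamate CTC held 13.6%, 13.1% and 13.4% of tRNA reads in the ESC libraries and 16.96%, 23.4% and 26.1% in the Fb libraries. ESC libraries were nearly alike, while Fb libraries spread widely without reaching down to the ESC values. Glutamate TTC held 2.47%, 2.56% and 1.83% in the ESC libraries and 0.401%, 1.39% and 0.833% in the Fb libraries. All ESC values were above all Fb values, and Fb replicate 1 was the lowest. Of 57 anticodons, 61.4% were separated with Fb higher and 8.77% with ESC higher, so TTC was on the rarer side.

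The ratio of CTC to TTC reads does not depend on any library total. Its dependence on how reads matching genes of both anticodons were divided was not tested. The ratio was 5.48, 5.14 and 7.30 CTC reads per TTC read in ESC libraries and 42.3, 16.9 and 31.4 in Fb libraries. The means of 5.97 ± 1.16 and 30.2 ± 12.7 (SD, n = 3) differ 5.05-fold, and the groups did not overlap (exact two-sided permutation p = 0.1). TTC genes thus held 14.6% ± 2.25 of the glutamate reads of ESC libraries and 3.66% ± 1.71 of those of Fb libraries (SD, n = 3).

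**Figure D1:**
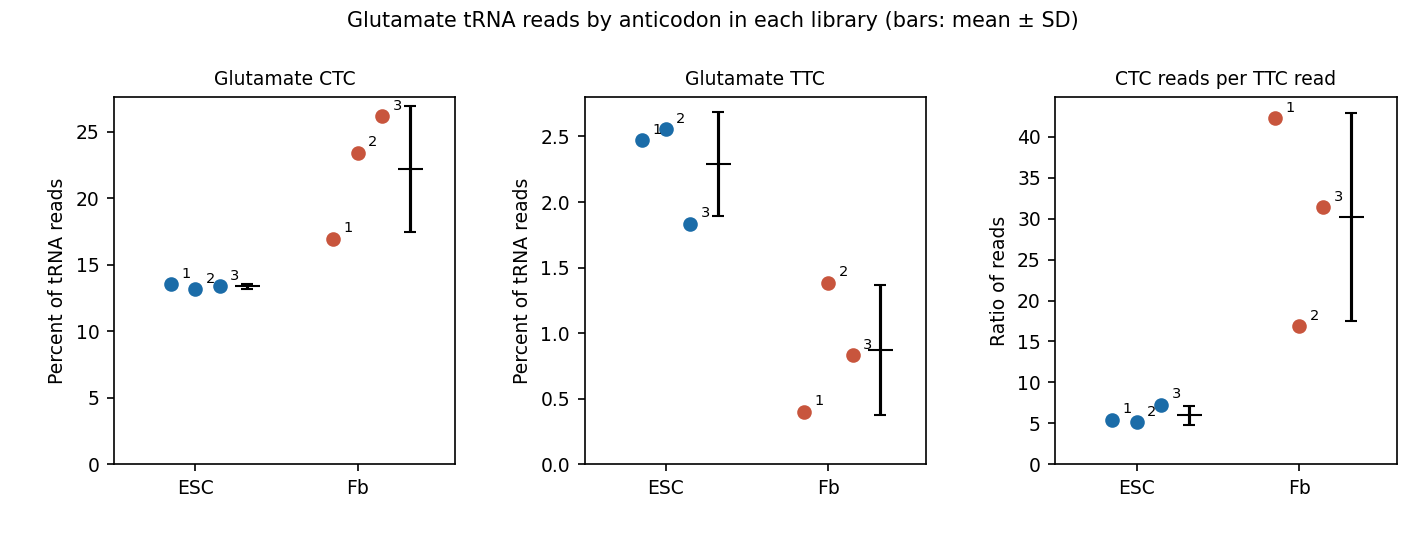
Glutamate CTC and TTC as percent of tRNA reads, and the number of CTC reads per TTC read, in each of the 3 ESC and 3 Fb libraries (points, numbered by replicate; bars are mean ± SD). CTC is higher in every Fb library, TTC is higher in every ESC library, and the ratio runs from 5.14 to 7.30 in ESC and from 16.9 to 42.3 in Fb libraries.

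In edgeR's quasi-likelihood test on the 47 anticodon sums that passed the count filter, with all tRNA reads as the library size, both glutamate anticodons passed an adjusted p of 0.05 in opposite directions. Fold changes are ESC over Fb on the log2 scale. For CTC the estimate was -0.73 with an SE of 0.19 (edgeR adjusted p = 0.00219), and for TTC it was 1.39 with an SE of 0.46 (edgeR adjusted p = 0.0117). Of the 47 sums, 72.3% passed as higher in Fb and 8.51% as higher in ESC exosomes, and their median log2 fold change was -2.54. This balance depended on the scaling: with TMM factors over the same sums 16 passed as higher in ESC and 12 as higher in Fb (median 0.47), and with DESeq2 15 and 17 (median -0.15). With all tRNA reads as the library size, CTC was a small Fb-side difference among tRNAs. Of the other sums, 38 had lower log2 fold changes and 8 had higher ones. For TTC, 42 were lower and 4 higher. The sign of CTC turned to the ESC side with TMM factors, at 2.39, and also with DESeq2.

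The CTC direction turned when glycine tRNAs were left out of the tRNA total. Glycine tRNAs made up 83.6% ± 0.472 of the tRNA reads of ESC libraries and 58.9% ± 4.68 of those of Fb libraries (SD, n = 3), so this total changes much between the groups. Of tRNA reads that were not glycine, CTC held 81.4%, 79.1% and 84.7% in ESC and 47.0%, 55.5% and 57.8% in Fb libraries. TTC held 14.9%, 15.4% and 11.6% against 1.11%, 3.29% and 1.84%. On this scale edgeR gave CTC a log2 fold change of 0.61 (adjusted p = 0.00198) and TTC one of 2.75 (adjusted p = 1.00e-04). With TMM factors over the anticodon sums the values were 2.39 for CTC (edgeR adjusted p = 0.00200) and 4.69 for TTC (edgeR adjusted p = 6.78e-06). Whether CTC was higher or lower in ESC exosomes thus depended on the reference, while TTC was higher in ESC exosomes under these 3 scalings of the tRNA reads.

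The comparison list held 8 anticodons of tRNAs known for abundant extracellular fragments. Relative to tRNA reads, 5 of them passed as higher in Fb exosomes (glycine GCC, valine CAC, valine AAC, lysine CTT and histidine GTG), 1 as higher in ESC (glycine CCC), and lysine TTT and aspartate GTC did not pass. The 5 on the Fb side had larger differences than glutamate CTC in this fit, with log2 fold changes of -5.14 (SE 0.33) for valine CAC and -6.68 (SE 0.66) for lysine CTT. Without glycine in the total, 4 of the 6 remaining passed as higher in Fb exosomes and 0 as higher in ESC, where 23 of all 43 sums passed on the Fb side and 4 on the ESC side. Glutamine and aspartate are the amino acids nearest to glutamate. Both glutamine anticodons passed as higher in Fb exosomes, CTG at -3.87 (SE 0.85) and TTG at -3.80 (SE 0.85), and aspartate GTC did not pass (-0.28, SE 0.66, edgeR adjusted p = 0.693). With TMM factors over the anticodon sums, 4 of the 8 list members passed as higher in ESC, 3 as higher in Fb and 1 did not pass, beside the 16 and 12 of all 47 sums. Neither glutamine anticodon passed there.

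Against single other tRNAs the glutamate reads differed to unlike degrees. There were 52.0, 28.8 and 46.6 glutamate reads per valine read in ESC and 1.03, 2.13 and 1.93 in Fb libraries, a ratio of means of 25.1. Glutamate CTC reads per glycine GCC read were 0.798, 0.658 and 0.964 in ESC and 0.420, 0.681 and 0.760 in Fb libraries. The groups overlapped there (exact two-sided permutation p = 0.3).

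With all RNAs in the fit and the tRNA genes summed by anticodon, edgeR called 0 of the 2 glutamate anticodons, with 0 at an unadjusted p under 0.05, while DESeq2 called CTC as higher in Fb exosomes (DESeq2 adjusted p = 0.00196). With DESeq2, 317 of the 2889 features tested passed as higher in Fb and 159 as higher in ESC exosomes. With edgeR, 6.85% of the 2889 passed as higher in Fb and 3.67% as higher in ESC. Of the 47 tRNA sums, edgeR passed 61.7% as higher in Fb and 0% as higher in ESC. The CTC estimate was -2.84 with an SE of 1.44 (edgeR adjusted p = 0.305), and that of TTC was -1.005 with an SE of 1.32 (edgeR adjusted p = 0.759). The TTC sign goes against its shares, where every ESC library was higher. The TMM factors of this fit, which scale each library by the bulk of its RNAs, were 1.63 to 1.65 in ESC libraries and 2.17, 0.224 and 0.465 in Fb replicates 1, 2 and 3. With library totals alone, CTC was at -0.82 (edgeR adjusted p = 0.0208) and TTC at 1.33 (edgeR adjusted p = 0.0434), and the median of all features moved from 0.07 to 0.83. The balance of calls turned with it, to 100 of the 2889 features higher in Fb and 210 higher in ESC. Without Fb replicate 1, CTC passed at -3.36 (edgeR adjusted p = 9.36e-04), where 396 of 3238 features passed on the Fb side. Without Fb replicate 2, TTC changed sign, to 0.41 (edgeR adjusted p = 0.919).

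**Figure D2:**
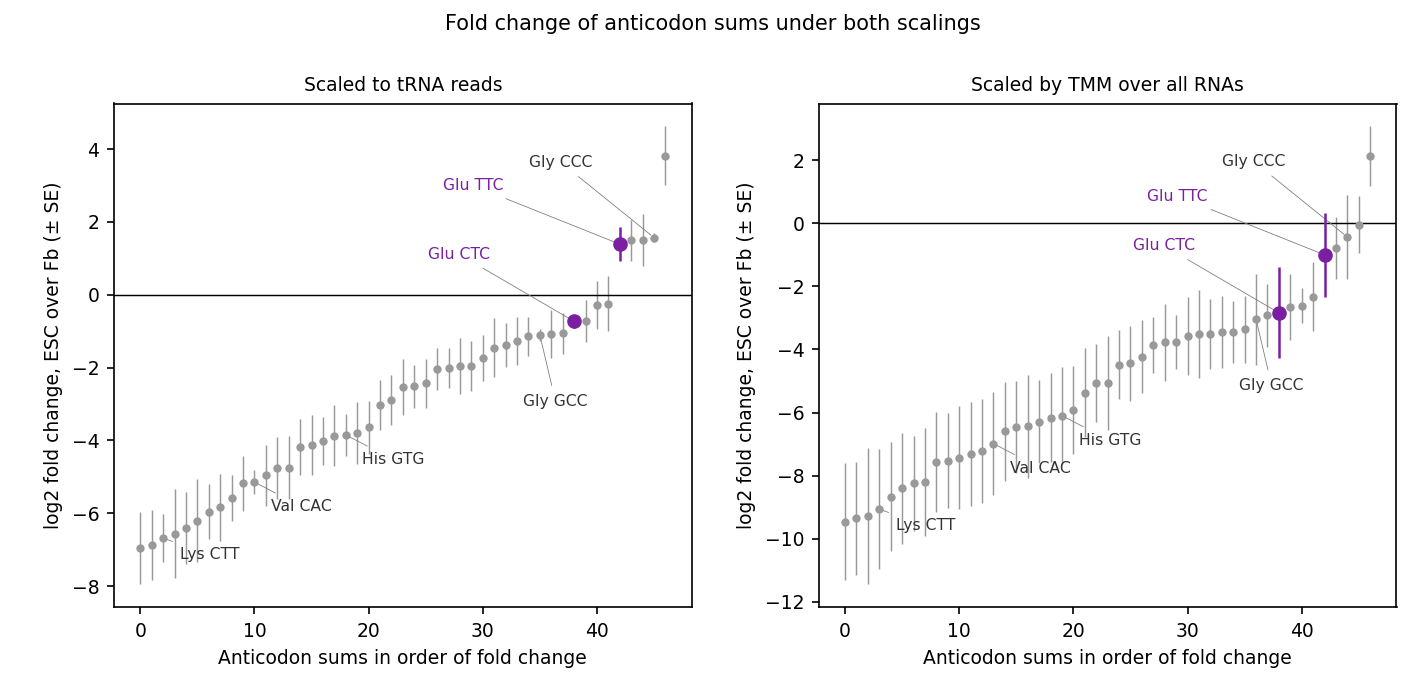
Log2 fold change (ESC over Fb, ± SE) of the 47 anticodon sums, in order of fold change, scaled to tRNA reads and scaled by TMM over all RNAs. Glutamate CTC and TTC (purple) lie near the upper end under both scalings, at -0.73 and 1.39 relative to tRNA reads and at -2.84 and -1.005 with TMM factors, where most anticodons are far below 0.

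Within the CTC anticodon, nearly all reads were of isodecoder 1, which has 9 gene copies. It was at 107212, 104575 and 105061 CPM of assigned reads in ESC and at 151510, 188223 and 220396 CPM in Fb libraries, without overlap. Isodecoder 2, a single gene, did not follow it, with 407, 422 and 390 CPM in ESC and 463, 318 and 458 CPM in Fb libraries. Its groups overlapped, with means of 406 ± 16.1 and 413 ± 82.2 CPM (SD, n = 3; exact two-sided permutation p = 1). Isodecoder 3, also a single gene, was rare and was higher in every Fb library, at 4.25, 5.51 and 7.57 CPM in ESC and 21.7, 54.5 and 42.4 CPM in Fb libraries, a ratio of means of 6.85 (exact two-sided permutation p = 0.1). As a share of CTC reads, isodecoder 2 was higher in every ESC library, at 0.370% to 0.402% against 0.169% to 0.304% in Fb libraries. Isodecoders 1 and 3 were higher in every Fb library on that scale. Among 68 tRNA isodecoders with at least 10 reads in every library, 33.8% had such shares separated with ESC higher and 27.9% with Fb higher. Isodecoders 4, 5 and 6 had 3 reads or fewer in every library and are not compared.

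As shares of assigned reads, TTC isodecoders 1 and 2 were higher in ESC libraries and isodecoder 3 was higher in Fb libraries. Isodecoder 1, with 4 copies, was at 12799, 13293 and 9369 CPM in ESC and 1693, 6042 and 3248 CPM in Fb libraries. Isodecoder 2, with 2 copies, was at 6424, 6687 and 4679 CPM in ESC and 614, 3422 and 1442 CPM in Fb libraries. All ESC values of both lay above all Fb values, with ratios of means of 3.23 and 3.25. Isodecoder 3, with 2 copies, was at 419, 454 and 393 CPM in ESC and 1290, 1696 and 2344 CPM in Fb libraries, 4.21-fold higher in the Fb mean and without overlap (exact two-sided permutation p = 0.1 for each of these 3). Of 68 isodecoders of all tRNAs with at least 10 reads in every library, 67.6% were separated with Fb higher and 8.82% with ESC higher.

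As a share of TTC reads, a measure that does not depend on library totals, isodecoder 3 held 2.14%, 2.22% and 2.72% in ESC and 35.9%, 15.2% and 33.3% in Fb libraries. The means were 2.36% ± 0.316 and 28.1% ± 11.3 (SD, n = 3; exact two-sided permutation p = 0.1). Fb replicate 2, with the lowest Fb share, was also the Fb library with the most TTC reads. Of the same 68 isodecoders, 27.9% had shares of their anticodon that were separated with Fb higher and 33.8% with ESC higher. There were 45.8, 44.0 and 35.7 reads of isodecoders 1 and 2 per read of isodecoder 3 in ESC and 1.79, 5.58 and 2.00 in Fb libraries. The ratio of isodecoder 1 to isodecoder 2 was 1.99, 1.99 and 2.00 in ESC libraries, close to the ratio of their 4 and 2 gene copies, and 2.76, 1.77 and 2.25 in Fb libraries. Whether shared reads were divided by copy number was not tested.

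**Figure D3:**
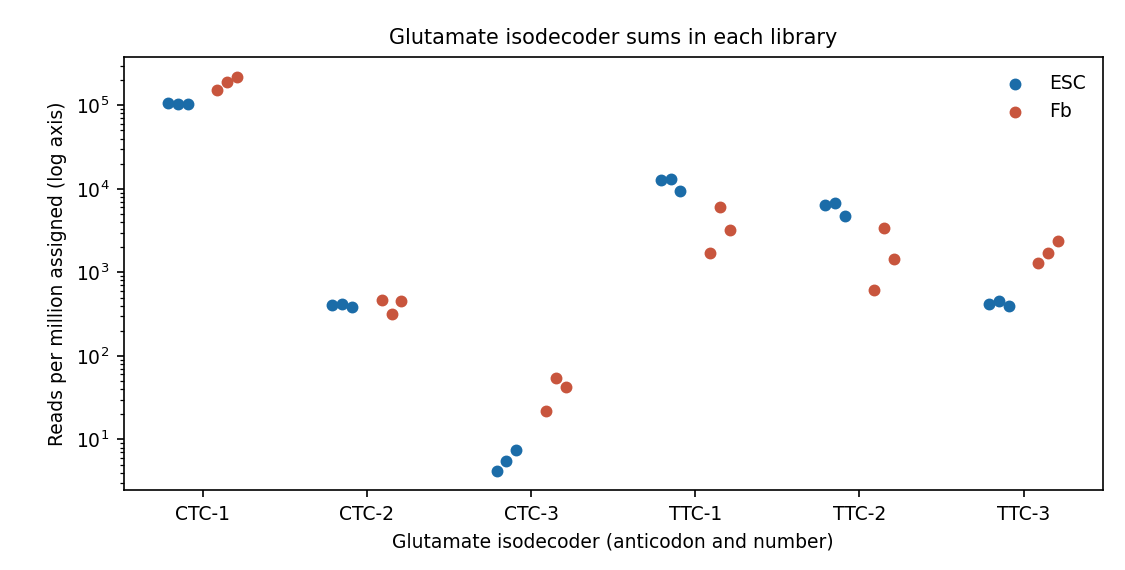
CPM of assigned reads (log axis) of the 6 glutamate isodecoder sums with at least 10 reads in every library, with 3 ESC and 3 Fb libraries as points in replicate order. CTC-1, CTC-3 and TTC-3 are higher in every Fb library, TTC-1 and TTC-2 in every ESC library, and CTC-2 overlaps.

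With tRNA genes summed by isodecoder and fitted with all RNAs under TMM factors, 6 of the 9 glutamate isodecoders passed the count filter and 1 of them, CTC-3, was called, on the Fb side, at -4.98 with an SE of 1.25 (edgeR adjusted p = 0.0270). Of 2977 features, 8.36% passed on that side and 3.73% on the ESC side, and of 135 tRNA isodecoders 57.8% and 1.48%. TTC-3 was at -4.06 (SE 1.26, edgeR adjusted p = 0.0648) and CTC-1 at -2.81 (SE 1.30, edgeR adjusted p = 0.239). CTC-2 (-1.79, SE 1.04), TTC-2 (-0.74, SE 1.31) and TTC-1 (-0.64, SE 1.27) had edgeR adjusted p-values of 0.369, 0.837 and 0.855. The number of glutamate isodecoders called as higher in Fb exosomes was 0 without ESC replicate 1, 2 or 3, where at most 1 of all features was called on that side. It was 0 without Fb replicate 3, where 68 of 3666 features were called, and 4 without Fb replicate 1, where 456 of 3343 were. With library totals alone CTC-3 did not pass (-2.77, edgeR adjusted p = 0.0510). The 2 called on the Fb side were then CTC-1 (edgeR adjusted p = 0.0200) and TTC-3 (edgeR adjusted p = 0.0101), and TTC-1 passed as higher in ESC exosomes, at 1.69 (edgeR adjusted p = 0.0207). Of all 2977 features, 145 passed on the Fb side and 215 on the ESC side under that scaling.

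Reads of some single copies, such as CTC-1 copies 4, 8 and 9, varied far more than their isodecoder sums. Of the 22 genes, 16 had at least 10 reads in some library and 6 had fewer in all, and 8 genes reached 1% of glutamate reads in at least 1 library. Among the 9 copies of CTC-1, copy 7 held 99.998%, 85.2% and 92.1% of the isodecoder's reads in the ESC libraries and 69.2%, 44.5% and 21.8% in the Fb libraries. Copy 9 had 8.73, 0.725 and 0.749 reads in ESC libraries and 372907, 391452 and 992211 reads in Fb libraries. Copy 4 had 0.504 reads in Fb replicate 1 but 437543 and 198904 in replicates 2 and 3, and copy 8 had 0.735, 172801 and 86193 reads in ESC and 0.504, 78272 and 0.614 reads in Fb libraries. Several of the other copies had the same small value in a library: in ESC replicate 2, 6 of the 9 copies lay within 0.001 reads of one another, at 0.725 reads. Others had a few reads more, such as copy 4 with 13.8 in that library and copies 1 and 5 with 12.5 and 11.5 in Fb replicate 1.

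The TTC copies followed 3 patterns. Of TTC-1, copy 4 led in all ESC libraries and Fb replicate 2, with 71.4% to 99.9996% of the isodecoder's reads, and copy 3 led in Fb replicates 1 and 3, with 69.2% and 98.3%. Of TTC-2, copy 1 held 18.0%, 21.9% and 20.1% in ESC and 99.7%, 71.4% and 100.0% in Fb libraries. In assigned reads copy 1 overlapped between the groups, at 1155, 1466 and 942 CPM in ESC and 612, 2444 and 1442 CPM in Fb libraries. Copy 2 did not, at 5268, 5221 and 3737 CPM against 1.88, 978 and 0.000668 CPM. The 2 copies of TTC-3 were equal to within 0.001 reads in every library, with 2075 reads each in ESC replicate 1 and 8104 each in Fb replicate 3.

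**Figure D4:**
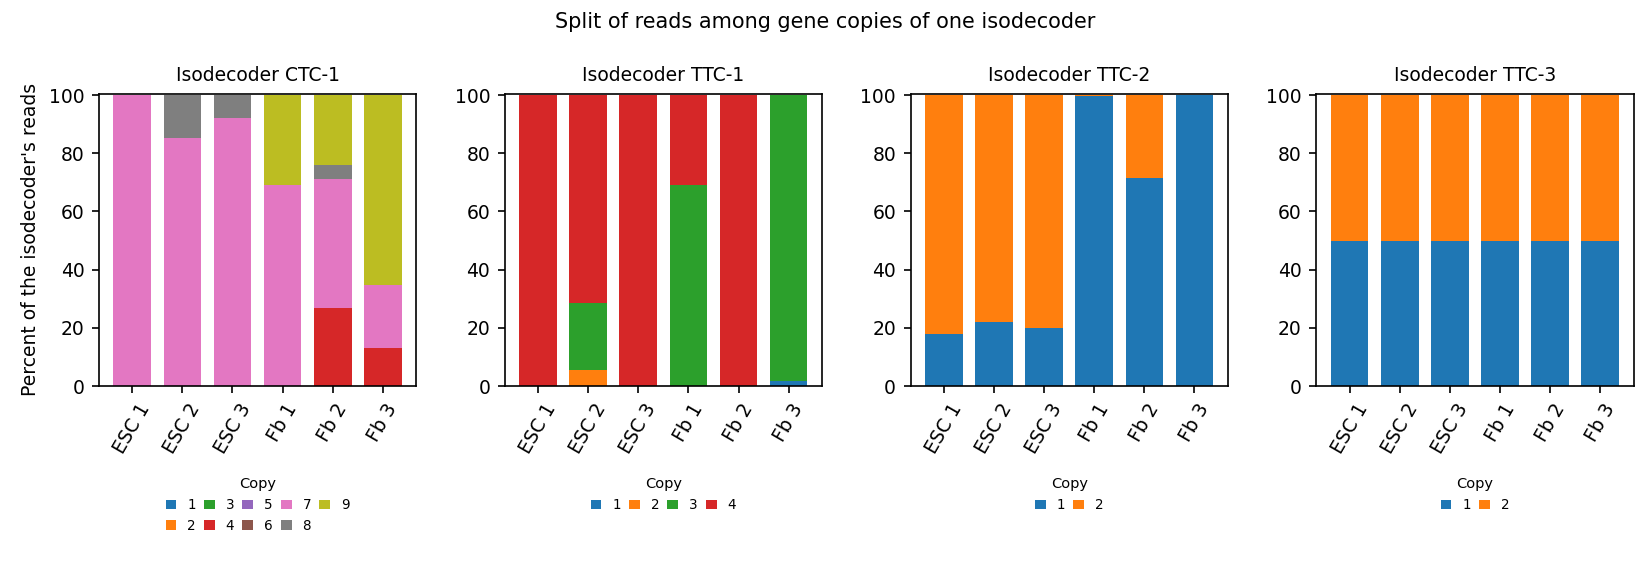
Percent of an isodecoder's reads given to each of its gene copies in the 3 ESC and 3 Fb libraries, for CTC-1, TTC-1, TTC-2 and TTC-3. Copy 7 of CTC-1 holds 99.998% in ESC replicate 1 and 21.8% in Fb replicate 3, where copy 9 holds 65.1%, while the copies of TTC-3 hold equal parts throughout.

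This was not seen in glutamate genes alone. Of 5 other tRNA isodecoders with several copies and at least 1000 reads in every library, 3 had a leading copy that differed between libraries and 4 had a copy above 90% in at least 1 library. In the fit of all RNAs with single genes, 14 of the 22 glutamate genes passed the count filter. Of these, 5 were called as higher in Fb exosomes by edgeR (CTC-1 copies 1, 4, 5 and 9, and CTC-3) and 0 as higher in ESC, where 8.2% of the 2999 RNAs and 52.2% of the 157 tRNA genes passed on the Fb side and 3.63% and 2.55% on the ESC side. CTC-1 copies 1 and 5 were called with 22.6 reads or fewer in every library. Copy 4 was called although its groups overlapped, since Fb replicate 1 had fewer reads of it than any ESC library. The count was 0 without ESC replicate 1, 2 or 3 or Fb replicate 3, and in those 4 fits 0 of all RNAs were called in either direction. It was 9 without Fb replicate 1, where 462 of 3405 RNAs were called on the Fb side. The log2 fold change of CTC-1 copy 1 was -5.73 with all libraries and -5.84 to -5.70 in the 4 fits with no call. In addition, 1 gene, TTC-2 copy 2, passed as higher in ESC without Fb replicate 2, where 112 of 3721 RNAs were called on that side. As copies share their mature sequence, a call on a copy such as CTC-1 copy 4 or 9 cannot be told apart from the way its reads were divided. In Fb libraries CTC-1 copies 1 and 5 had 10.6 to 22.6 reads, beside 0.504 to 0.646 for copies 2 and 3. Whether those reads matched a single copy was not tested.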

How the data were processed

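The authors deposited 1 table per library with estimated counts of reads per annotated RNA, mostly fractional, per the file headers and values. FastQC, cutadapt and the GRCm38 build are named per the submitters' processing notes. Not given in the sources used here are the aligner, the counter, whether strand was used and how reads matching several genes were handled, and the split among similar tRNA genes rests on them.

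Counts were summed by anticodon and isodecoder and taken as shares of tRNA reads and of assigned reads. Shares were compared by exact two-sided permutation tests with Benjamini-Hochberg adjustment. Estimated counts were rounded for the quasi-likelihood test of edgeR 4.0.16 (R 4.3.3), with group as the single model term. Its filterByExpr filter had a minimum count of 10 and total of 15, and p-values were adjusted by Benjamini-Hochberg over all features of a fit. Standard errors are the log2 fold change divided by the square root of F. Fits of all RNAs used TMM, and the fit of anticodon sums used tRNA totals. The edgeR test was tried on simulated counts with TMM factors alone. The fit with tRNA totals was not simulated, and nothing above rests on the simulation. Alternatives were DESeq2 1.42.0, other scalings, no count filter, a block for replicate number, and fits with 1 library left out.

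Every isodecoder and gene with at least 1% of glutamate reads in a library was named; others named, such as CTC-2 and CTC-3, were chosen after their values were seen. Members and lists were chosen with earlier results of these data known.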

Additional observations from a re-analysis of the deposited data

How the results depend on the processing

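Scaling decided several directions. Without glycine tRNAs in the tRNA total, the log2 ratio of mean shares (ESC over Fb) turned from -0.56 to 0.79 for all glutamate tRNAs and from -0.73 to 0.61 for CTC. In the fit relative to tRNA reads, the CTC fold change turned from -0.73 to 2.39 with TMM factors, 0.61 without glycine and 1.79 with DESeq2. Per miRNA read, the TTC ratio turned from 1.32 to -1.98. Glutamate reads per miRNA read averaged 0.889 in ESC and 16.1 in Fb libraries. In the fit of all RNAs, TTC turned from -1.005 to 1.33 with library totals alone, and CTC passed with library totals (-0.82) and DESeq2 (-2.90). Isodecoders called as higher in Fb exosomes numbered 1, and 2 with library totals, 2 with upper-quartile factors, 3 with DESeq2 and 0 with the replicate block. Over all 2977 features the Fb-side calls moved as well, from 249 to 145, 263, 370 and 119 in the same order. Under library totals 1 glutamate isodecoder was called as higher in ESC, beside 215 of all features. TTC-1 and TTC-2 turned to 1.69 and 1.70 with library totals.

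Whether ESC and Fb libraries of the same replicate number belong together is not known. Deviations from the group means correlated at 0.0172, -0.0343 and 0.0993 for the same-numbered libraries over 567 RNAs, and not every library correlated best with its own number. With so few libraries these correlations cannot exclude a pairing. Under the replicate block TTC-1 and TTC-2 were at 0.28 and 0.39, and CTC-1 copy 8 was at 1.11. Single glutamate genes called as higher in Fb numbered 3 in place of 5, beside 110 in place of 246 of all 2999 RNAs. Both anticodons passed relative to tRNA reads under the block, at -0.71 and 1.54.

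With 1 library left out at a time, the fold change in the fit of all RNAs ranged from -3.36 to -2.07 for CTC and from -1.55 to 0.41 for TTC. Glutamate isodecoders called as higher in Fb ranged from 0 to 4, beside 0 to 456 of all features. Single glutamate genes called ranged from 0 to 9 on the Fb side, beside 0 to 462 of all RNAs. On the ESC side they ranged from 0 to 1, beside 0 to 129 of all RNAs. Relative to tRNA reads, CTC stayed between -0.89 and -0.59 and TTC between 1.05 and 1.89, all with edgeR adjusted p-values under the threshold. TTC-1 ranged from -1.21 to 0.93 and TTC-2 from -1.31 to 1.13, CTC-1 copy 8 from -2.32 to 15.06 and TTC-1 copy 3 from -14.13 to 1.21, and TTC-1 copy 4 from -1.003 to 5.76. The sign turned without Fb replicate 2, except for TTC-1 copy 3, where it turned without Fb replicate 3. With library totals, CTC-1 copies 7 and 8 were at 0.30 and 1.39 and TTC-1 copy 4 at 2.26. That copy was also at 0.079 with upper-quartile factors, 0.17 with no count filter and 5.07 under the replicate block. The cause of these changes was not tested.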
